A study of Mus musculus with 19 samples.

Results

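The genes described here encode the proteasome and the proteins that assemble, activate or inhibit it. They are the listed genes whose mouse symbol has the form Psma to Psmg followed by a number and, in some, a letter: 47 of the 14173 genes of the table. By role they are 17 subunits of the core particle (8 alpha, 9 beta), 6 ATPases of the base (Psmc), 14 Psmd genes (11 other subunits of the base and lid, and Psmd5, Psmd9 and Psmd10, which are chaperones of the base), 5 activators (Psme), the inhibitor Psmf1 and 4 chaperones of the core (Psmg). Psmb8 and Psmb11 are not analysed here. The libraries hold polyadenylated RNA of whole mouse blastocysts, each from 1 embryo, of which 10 are Control and 9 Padi6-mutant. Padi6 encodes an oocyte protein, and the mutants came from oocytes that carry the substitution P620A in it, so the allele acts through the mother. The series text speaks of mutant embryos that passed an arrest in early cleavage, so the mutant libraries represent survivors. The strain, the sex and the litter of the embryos and the genotype of the Control mothers are not given in the sources used here. Where embryos of a group share a litter, the p-values below are too small.

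The proteasome degrades proteins that carry ubiquitin chains. Its core particle is a barrel of stacked rings: alpha subunits form the outer rings and the gate, and beta subunits form the inner rings, of which beta 1, beta 2 and beta 5 (Psmb6, Psmb7 and Psmb5) cut peptide bonds. The regulatory particle sits on the barrel. Its ATPases unfold the substrate and push it into the core, and its lid removes ubiquitin. Under interferon, Psmb9, Psmb10 and Psmb8 can replace the constitutive catalytic subunits and form the immunoproteasome. When proteasomes are inhibited, the transcription factor NFE2L1 is known to raise the genes of all subunits together.

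Values are log2(scaled count + 1), where the authors scaled each library to a common upper quartile, and a fold change is the Padi6-mutant mean minus the Control mean on that scale. A gene is said to have risen or fallen where limma's adjusted p was under 0.05. Total scaled counts were 36.25 to 49.24 M in Control libraries and 40.76 to 53.09 M in Padi6-mutant libraries. Between 30 and 247 genes were at 0 in Control libraries and between 113 and 596 in Padi6-mutant libraries, with over 400 in Padi6-mutant 6, 8, 9 and 10. Of the blastocyst markers, 5 of 6 trophectoderm, 3 of 3 inner cell mass and 4 of 4 primitive endoderm genes are listed; 0, 1 and 3 of them fell and none rose. Only Star is listed of 10 cumulus and granulosa markers, at a summed 41 to 382 scaled counts in Control and 12 to 344 in Padi6-mutant libraries. Only Cd74 is listed of 6 blood cell markers, at 13 to 822 and 141 to 2412. The part of either marker in the results was not tested. Padi6 itself lay between 3.81 and 9.24 in Control and between 2.00 and 9.27 in Padi6-mutant libraries, which does not check the labels, since the mutation is a substitution.

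In Padi6-mutant blastocysts 12 of the 17 core genes rose, and none of the 6 ATPases passed the test in either direction. Of the 47 genes, 18 rose, 2 fell and 27 did not pass the test (15 rose and 4 fell with quantile normalization). With trends on transcript length and GC content taken out of each library, 9 rose and 9 fell. Of all 14173 genes, 26.6% passed it: 14.6% rose and 12.0% fell. The core held 12 of the 18 genes that rose, and none of its 17 members fell. Of the 14 Psmd genes, 2 rose (the subunit Psmd8 and the chaperone Psmd10) and 2 fell (the subunits Psmd2 and Psmd3), which is 14.3% each way and near the shares over all genes. Among the activators 2 of 5 rose, and among the core chaperones 2 of 4. The median fold change was 1.04 over the core, -0.20 over the ATPases, -0.11 over the Psmd genes, 0.44 over the activators and 0.64 over the core chaperones, against -0.10 over all genes. Each library holds a whole embryo, so fewer cells of a type and less RNA per cell cannot be told apart.

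**Figure D1:**
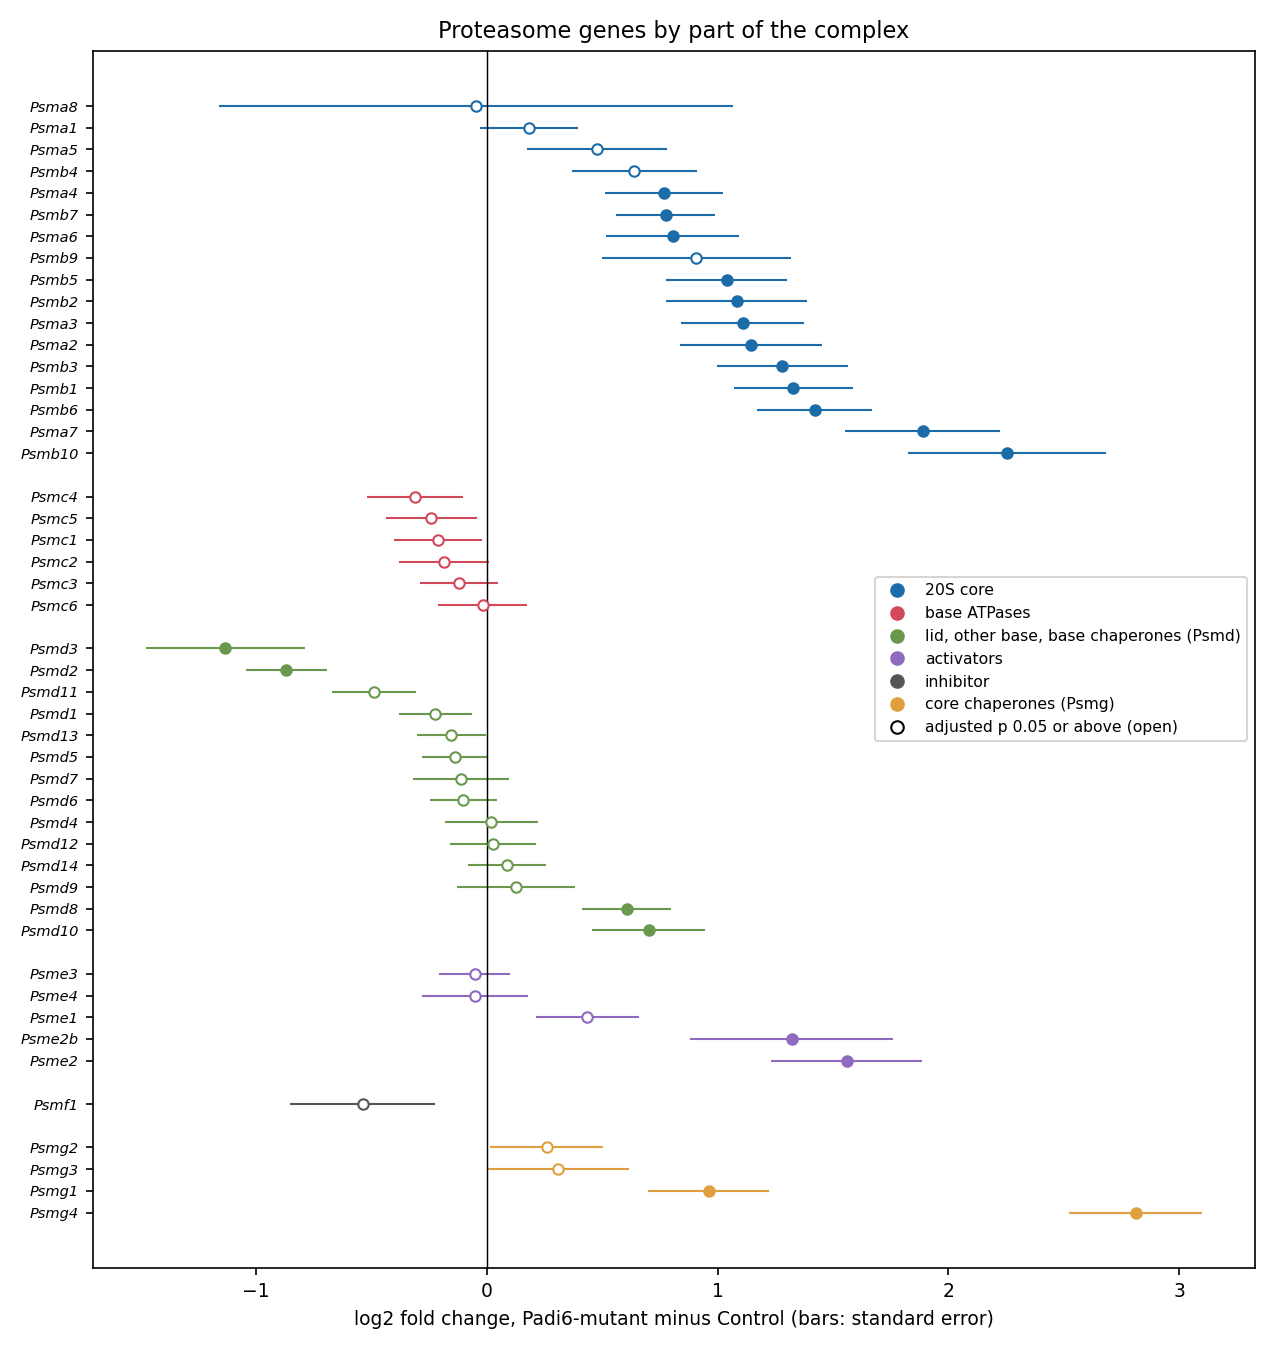
Fold change of each of the 47 genes (horizontal axis, log2 Padi6-mutant minus Control; 1 point per gene with its standard error), grouped by role, with filled points for genes past an adjusted p of 0.05 and a line at 0. The core subunits lie mostly to the right, with a median of 1.04, while the 6 ATPases lie between -0.31 and -0.02.

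Stretches of 5 promoters are shown, from genes that behaved differently. Psmb6 and Psmb5 are core genes that rose, and Psmg4 had the largest rise among the 47. Psmc4 is an ATPase, and Psmd2 is a gene that fell. Each line holds the 100 bases before the gene's RefSeq start, 5′ to 3′ on the strand of the gene, from RefSeq's promoters on the build GRCm38.p6. Capitals mark the letters TGACNNNGC, the core of the antioxidant-type element that NFE2L1 binds, and CGGAAG, the core of ETS sites, each on either strand.
Psmb6, chr11:70525257-70525356, plus strand: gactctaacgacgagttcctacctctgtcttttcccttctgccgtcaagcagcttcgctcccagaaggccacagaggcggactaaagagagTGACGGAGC
Psmb5, chr14:54617996-54618095, minus strand: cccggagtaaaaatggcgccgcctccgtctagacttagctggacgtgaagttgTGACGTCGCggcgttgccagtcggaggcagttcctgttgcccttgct
Psmg4, chr13:34162864-34162963, plus strand: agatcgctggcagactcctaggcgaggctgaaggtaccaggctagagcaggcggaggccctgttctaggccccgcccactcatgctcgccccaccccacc
Psmc4, chr7:28050093-28050192, minus strand: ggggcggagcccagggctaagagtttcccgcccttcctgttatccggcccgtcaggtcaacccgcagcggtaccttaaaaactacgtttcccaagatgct
Psmd2, chr16:20651552-20651651, plus strand: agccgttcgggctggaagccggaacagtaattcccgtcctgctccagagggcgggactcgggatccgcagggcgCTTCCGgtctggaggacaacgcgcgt

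The element TGACNNNGC begins 9 bases before the start of Psmb6 and 47 bases before that of Psmb5, and neither set of letters is in the stretch shown for Psmg4 or Psmc4. In the stretch of Psmd2 the ETS core is on the other strand. RefSeq promoters, which run from 250 bases before the start to 50 after it, were found for 39 of the 47 genes and for 9575 of all listed genes. TGACNNNGC was in 6 of the 39 promoters (15.4%), those of Psmb5, Psmb6, Psmc6, Psmd9, Psmd12 and Psme4, and in 16.9% of all. Of the 15 genes with a promoter that rose, 2 held it, Psmb5 and Psmb6, both shown above. In this respect they do not represent the other genes that rose. Among the 24 that did not rise, 4 held it. CGGAAG was in 21 of the 39 promoters (53.8%) against 36.1% of all. It was in 5 of the 15 genes that rose and in 16 of the 24 others. Psmc4 is among these others, with the letters outside the stretch shown above. The CCAAT box was in 33.3% of the 39 and 43.6% of all, and the GC box GGGCGG in 59.0% and 68.4%; all searches took both strands, and none of these matches is evidence of binding.

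Among the alpha subunits, 5 of 8 rose: Psma2, Psma3, Psma4, Psma6 and Psma7. Psma7, the alpha 4 subunit, had log2 levels of 12.00, 13.28 and 15.25 (lowest, median, highest) in Control and 14.48, 15.21 and 16.28 in Padi6-mutant libraries. Its fold change was 1.89 (SE 0.34, adjusted p = 0.000222), the largest among the alpha subunits. All 9 mutants lay above the Control median and 8 of the 10 Control libraries below the lowest mutant, so the groups overlapped through the highest Controls. Psma3, the alpha 7 subunit, went from a Control median of 14.07 (13.14 to 15.61) to 15.29 (14.83 to 15.87), a change of 1.11 (SE 0.27, adjusted p = 0.00367). Psma2, the alpha 2 subunit, went from 13.24 (12.48 to 15.07) to 14.66 (14.02 to 15.21), a change of 1.14 (SE 0.31, adjusted p = 0.00814). In both, every mutant lay above the Control median. Psma4 was at 13.48 (12.29 to 14.63) in Control and 14.34 (13.67 to 14.97) in mutant libraries, a change of 0.77 (adjusted p = 0.0293). Psma6 changed by 0.80 (adjusted p = 0.0422). These last calls lay near the threshold. Leaving out any 1 of 5 libraries ended the call of Psma4 (adjusted p up to 0.0581). Any 1 of 11 ended that of Psma6 (adjusted p up to 0.0837), whose fold change stayed between 0.67 and 0.95. Each of these calls held under 3 of the 9 alternatives described below.

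Psma1, Psma5 and Psma8 did not pass. Psma1, the alpha 6 subunit, had the highest Control level per length among the core genes (log2 level per kb of transcript 14.67 ± 0.58, SD, n = 10), and its fold change was 0.18 (adjusted p = 0.559). Psma5 gave 0.48 (adjusted p = 0.257). Psma8, which replaces Psma7 in the proteasome of male germ cells, was the lowest core gene (5.31 per kb in Control). It ran from 1.00 to 8.40 (median 7.03) in Control and from 0.00 to 8.90 (median 6.88) in mutant libraries, with a change of -0.05 (SE 1.12, adjusted p = 0.982). Its value in Padi6-mutant 8 is the only 0 among the 893 values of the 47 genes.

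Of the 9 beta subunits 7 rose, and all 9 had positive fold changes, from 0.64 to 2.25. Psmb6, the caspase-like beta 1 subunit, had log2 levels of 12.49, 13.08 and 14.40 in Control and 14.10, 14.75 and 15.22 in Padi6-mutant libraries. It rose by 1.42 (SE 0.25, adjusted p = 0.000196), with 7 of 9 mutants above the highest Control library. Psmb1, the non-catalytic beta 6 subunit, went from 12.93 (12.08 to 14.34) to 14.39 (13.97 to 15.13), a rise of 1.33 (SE 0.26, adjusted p = 0.000531). Psmb3, the beta 3 subunit, went from 12.96 (12.14 to 14.70) to 14.54 (13.86 to 14.89), a rise of 1.28 (SE 0.28, adjusted p = 0.00179). The chymotrypsin-like subunit Psmb5 rose by 1.04 (adjusted p = 0.00511) and the trypsin-like subunit Psmb7 by 0.78 (adjusted p = 0.00986), so each of the 3 constitutive catalytic subunits passed. Psmb2 rose by 1.08 (adjusted p = 0.0117), and Psmb4 had 0.64 (adjusted p = 0.084). With library weights Psmb4 passed (0.68, adjusted p = 0.0256). For 13 of the 17 core genes, alpha and beta, all 9 mutants lay above the Control median. The share of all genes with this property was not counted, so it cannot be called particular to the core.

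The Control embryos spread widely in the core genes. Control 9 was the highest Control library in 13 of the 17 core genes and Control 1 or Control 8 the lowest in 14. Among mutants, Padi6-mutant 6 was the highest in 13 and Padi6-mutant 9 the lowest in 11. No core gene had groups without overlap. Over the 47 genes only Psmg4 did (below), while 2.67% of all genes had every mutant above every Control library.

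**Figure D2:**
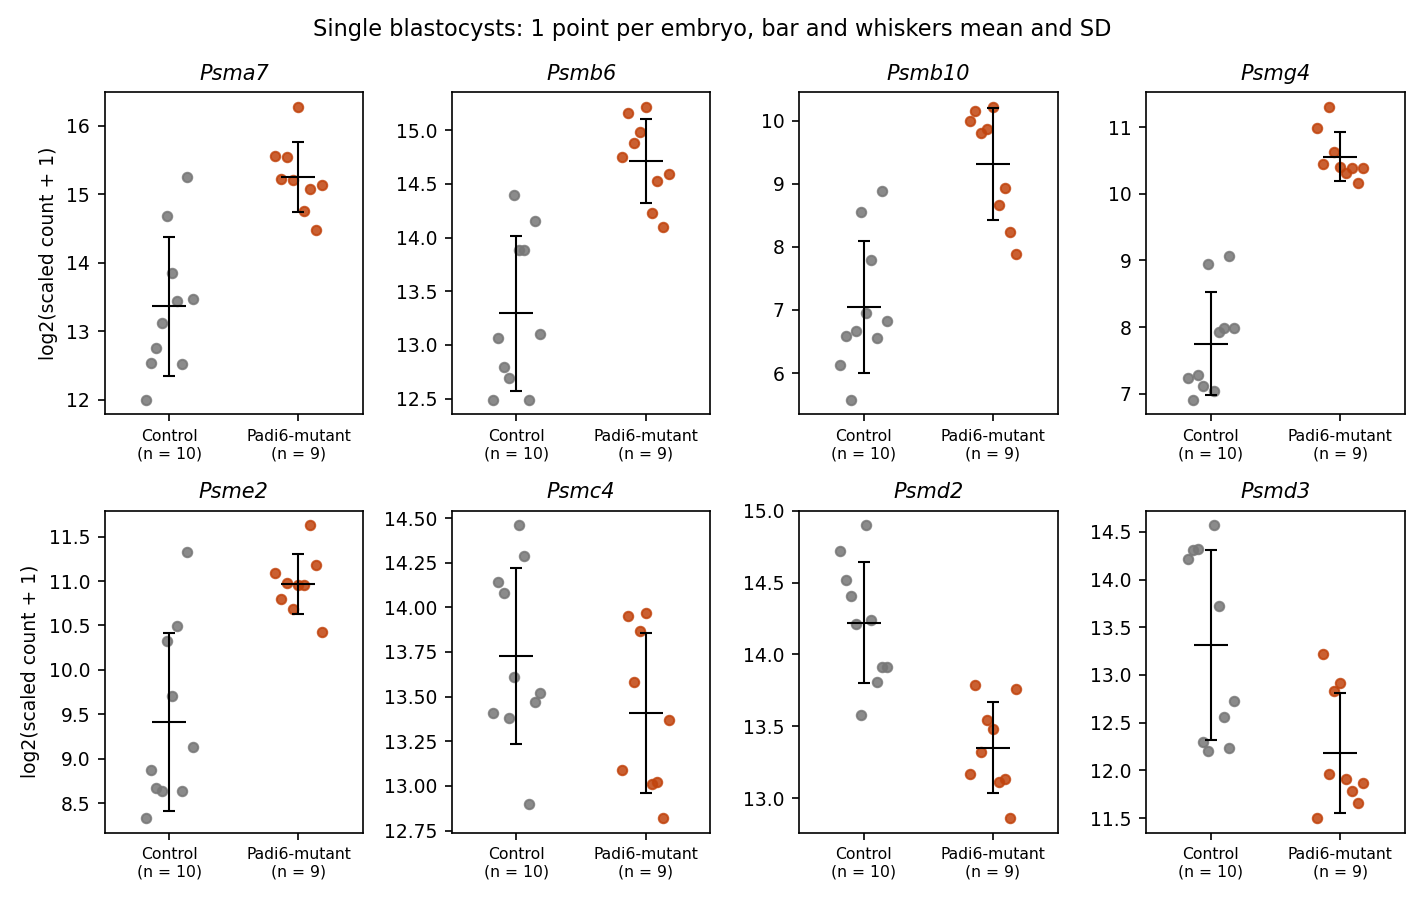
Log2 level (vertical axis, log2 scaled count + 1) of 8 genes in each Control and Padi6-mutant library, with 1 point per embryo and a bar at the mean with its SD. The mutants of Psmg4 lie between 10.16 and 11.31, all above the Controls, while Psmb6 and Psma7 overlap only through their highest Controls, Psmc4 overlaps along most of its range and Psmd2 and Psmd3 lie lower in mutants.

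The immunoproteasome subunits were far below their constitutive counterparts. In Control libraries Psmb10 was at a log2 level per kb of 6.67 beside 12.22 for Psmb7, which it can replace, and Psmb9 at 7.54 beside 13.62 for Psmb6. Psmb10 had log2 levels of 5.58, 6.75 and 8.89 in Control and 7.89, 9.81 and 10.22 in Padi6-mutant libraries. It rose by 2.25 (SE 0.43, adjusted p = 0.000461), with 6 of 9 mutants above the highest Control library. Psmb9 was at 6.88, 7.67 and 9.66 in Control and 7.17, 9.16 and 9.93 in mutant libraries, a fold change of 0.91 (SE 0.41, adjusted p = 0.102) that did not pass. It passed with library weights (1.22, adjusted p = 0.00873), with gene detection in the fit (1.54, adjusted p = 0.0282), without Padi6-mutant 6, 8, 9 and 10 (1.45, adjusted p = 0.0207), and without Control 5 or Padi6-mutant 9 alone.

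Set against its counterpart within each embryo, Psmb10 was higher in the mutants. Psmb10 minus Psmb7 was -5.38 (-6.33 to -4.33) at the Control median and -3.45 (-5.17 to -3.30) at the mutant median. The means differed by 1.48, with all 9 mutants above the Control median (exact two-sided permutation test over 92378 assignments, p = 0.000357, adjusted over 3 pairs 0.00107). Psmb9 minus Psmb6 differed by -0.51, with 3 of 9 mutants above the Control median (exact permutation p = 0.272, adjusted 0.272). That difference was -0.05 without Padi6-mutant 6, 8, 9 and 10 and 0.23 with the trend on transcript length removed. These pairs, and Psme2 with Psme1 below, were compared after their values had been seen.

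Of the genes of the wider interferon response and of peptide loading on MHC class I, 7 of 10 are listed, and 1 rose and 1 fell, near the shares of 14.6% and 12.0% over all genes. B2m, the light chain of MHC class I, rose by 2.52 (adjusted p = 1.07e-05), and by 1.05 with the trend on coding length removed. H2-K1, a heavy chain, fell by 1.19 (adjusted p = 0.038). Its call ended without any 1 of 9 libraries (adjusted p up to 0.0718) and under 4 alternatives, with adjusted p up to 0.22. Tapbp, which edits the bound peptide, had -0.77 (adjusted p = 0.125), and the list's median was -0.51.

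The ATPases form the ring that touches the core, and none of them passed the test. Psmc4 had log2 levels of 12.90, 13.56 and 14.46 in Control and 12.82, 13.37 and 13.97 in Padi6-mutant libraries, the lowest fold change of the 6 at -0.31 (SE 0.21, adjusted p = 0.275). Psmc5 had 13.17, 14.21 and 14.62 against 13.16, 13.90 and 14.33, a fold change of -0.24 (SE 0.20, adjusted p = 0.388). Psmc1 had -0.21, Psmc2 -0.19 and Psmc3 -0.12, with adjusted p of 0.434, 0.505 and 0.628. Psmc6 ran from 13.99 to 15.06 in Control (median 14.38) and from 13.86 to 15.61 in mutant libraries (median 14.37), a fold change of -0.02 (SE 0.19, adjusted p = 0.959). All 6 fold changes were below 0, with standard errors of 0.17 to 0.21, so changes of that size were not detectable.

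In Control embryos, transcripts of the core and of the ATPases were at comparable levels per length. Medians over genes were 12.97 for the core and 13.27 for the ATPases (log2 level per kb of transcript). For each embryo, the median deviation of the ATPases from each gene's mean over all libraries was subtracted from that of the core genes. It ran from -1.50 to 0.80 in Control embryos (median -0.80) and from 0.34 to 1.05 in Padi6-mutant embryos (median 0.67). Of the 10 Control embryos, 9 lay below the lowest mutant; Control 9, at 0.80, lay among the mutants, and Control 5 was next at 0.09. The core alone ran from -1.57 to 0.78 in Control and from 0.03 to 1.12 in mutants, and the ATPases from -0.54 to 0.58 and from -0.73 to 0.43. These scores are a description, since their members were chosen with results of these data known.

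**Figure D3:**
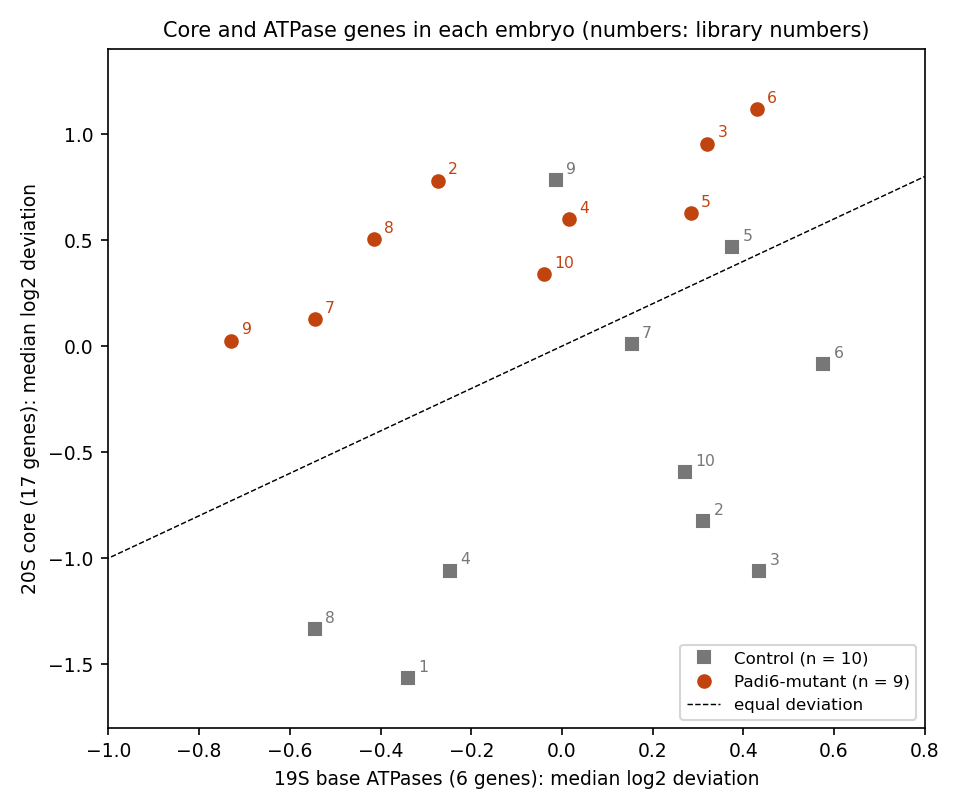
Median deviation of the 6 ATPase genes (horizontal axis, log2) and of the 17 core genes (vertical axis, log2) from each gene's mean over all 19 libraries, with 1 numbered point per embryo and a dashed line where both are equal. Along the horizontal axis the groups overlap, while along the vertical axis all 9 mutants are above 0 (0.03 to 1.12), together with 3 Control embryos, Control 5, 7 and 9.

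Of the 11 Psmd subunits 1 rose and 2 fell, while of all genes 14.6% rose and 12.0% fell. Psmd2, the large scaffold of the base that binds shuttle factors, had log2 levels of 13.58, 14.23 and 14.90 in Control and 12.86, 13.32 and 13.79 in Padi6-mutant libraries. It fell by 0.87 (SE 0.18, adjusted p = 0.000778), with all 9 mutants below the Control median and 7 below the lowest Control. Psmd3, a lid subunit, had 12.20, 13.23 and 14.57 against 11.50, 11.91 and 13.22. It fell by 1.13 (SE 0.34, adjusted p = 0.0178), again with all 9 mutants below the Control median. When Padi6-mutant 6, 8, 9 and 10 were left out, or when the fit took gene detection per library into account, Psmd2 still passed (-0.83 and -0.80). Psmd3 did not: its fold change was -1.04 (adjusted p = 0.0984) without these libraries and -0.77 (adjusted p = 0.237) with detection in the fit.

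Psmd8, the subunit that joins last when the lid is built, had 13.04, 13.90 and 14.40 in Control and 13.78, 14.48 and 15.00 in mutant libraries. It rose by 0.61 (SE 0.19, adjusted p = 0.0239), with 8 of 9 mutants above the Control median. The call held under 5 of 9 alternatives. It ended with quantile normalization (0.38, adjusted p = 0.111) and the replicate block (0.0855). It also ended with gene detection in the fit (0.16) and without Padi6-mutant 6, 8, 9 and 10 (0.0659). Psmd10, known as gankyrin, is an X-linked chaperone of the base rather than a subunit of the finished particle. It had 9.39, 10.94 and 11.64 in Control and 11.06, 11.32 and 11.94 in mutant libraries, a rise of 0.70 (SE 0.24, adjusted p = 0.0374). Leaving out any 1 of 8 libraries ended that call, with adjusted p up to 0.0718, and it held under 4 of 9 alternatives. The sex of the embryos was not used here.

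The remaining 10 Psmd genes did not pass, with fold changes from -0.49 to 0.13. Psmd11, a lid subunit, was closest with -0.49 (adjusted p = 0.0506). It passed with quantile normalization (-0.76, adjusted p = 0.00134), the replicate block (0.0276) and library weights (0.04). It also passed with a pseudocount of 16 (0.0495), among genes above the median level (0.041) and with the trend on transcript length removed (0.0137). It did not with the trend on coding length removed (0.277), gene detection in the fit (0.107) or without Padi6-mutant 6, 8, 9 and 10 (0.127). Psmd1, the other scaffold of the base, had -0.22 (adjusted p = 0.312) and passed with quantile normalization (-0.55, adjusted p = 0.0111). The deubiquitinase Psmd14 had 0.09 (adjusted p = 0.741). Psmd4, a ubiquitin receptor, ran from 13.12 to 15.03 in Control (median 13.99) and from 13.54 to 14.60 in mutants (median 14.04), a fold change of 0.02 (adjusted p = 0.958). Psmd5 and Psmd9, which like Psmd10 are chaperones of the base, had -0.14 (adjusted p = 0.49) and 0.13 (adjusted p = 0.747).

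The activators open the gate of the core without ATP. Psme1 and Psme2 form the interferon-inducible cap, while Psme3 and Psme4 act mainly in the nucleus. Psme2 had log2 levels of 8.33, 9.00 and 11.33 in Control and 10.43, 10.96 and 11.63 in Padi6-mutant libraries. It rose by 1.56 (SE 0.33, adjusted p = 0.0011), with 8 of 10 Control libraries below the lowest mutant. Psme1 had 9.00, 10.12 and 10.81 against 9.88, 10.51 and 11.02, a fold change of 0.44 (SE 0.22, adjusted p = 0.152). It passed with library weights (0.53, adjusted p = 0.0497) and under no other alternative.

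Psme2 minus Psme1, taken within each embryo, was higher in the mutants. Its median was -1.02 (-1.42 to 1.17) in Control and 0.23 (-0.11 to 1.24) in Padi6-mutant embryos. The means differed by 1.12, with all 9 mutants above the Control median (exact two-sided permutation p = 0.00272, adjusted over 3 pairs 0.00408). Without Padi6-mutant 6, 8, 9 and 10 the difference was 0.91 (exact permutation, adjusted p = 0.05). Psme2b is a near-identical copy of Psme2, so how reads were divided between them is uncertain. Psme2b had 4.17, 6.07 and 7.64 in Control and 6.36, 6.93 and 8.20 in mutants. Its rise was 1.32 (SE 0.44, adjusted p = 0.0295). That call ended without any 1 of 5 libraries (adjusted p up to 0.0599) and held under 3 of 8 alternatives. Psme3 had 12.00, 12.18 and 12.51 against 11.43, 12.22 and 12.72, and Psme4 11.72, 12.43 and 13.18 against 11.39, 12.53 and 12.83. Both fold changes were -0.05, with adjusted p of 0.826 and 0.891. Psmf1, the inhibitor PI31, had 9.66, 11.03 and 11.77 in Control and 9.11, 10.36 and 11.35 in mutants. Its fold change was -0.54 (SE 0.31, adjusted p = 0.212), and it passed with library weights (-0.75, adjusted p = 0.0454).

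**Figure D4:**
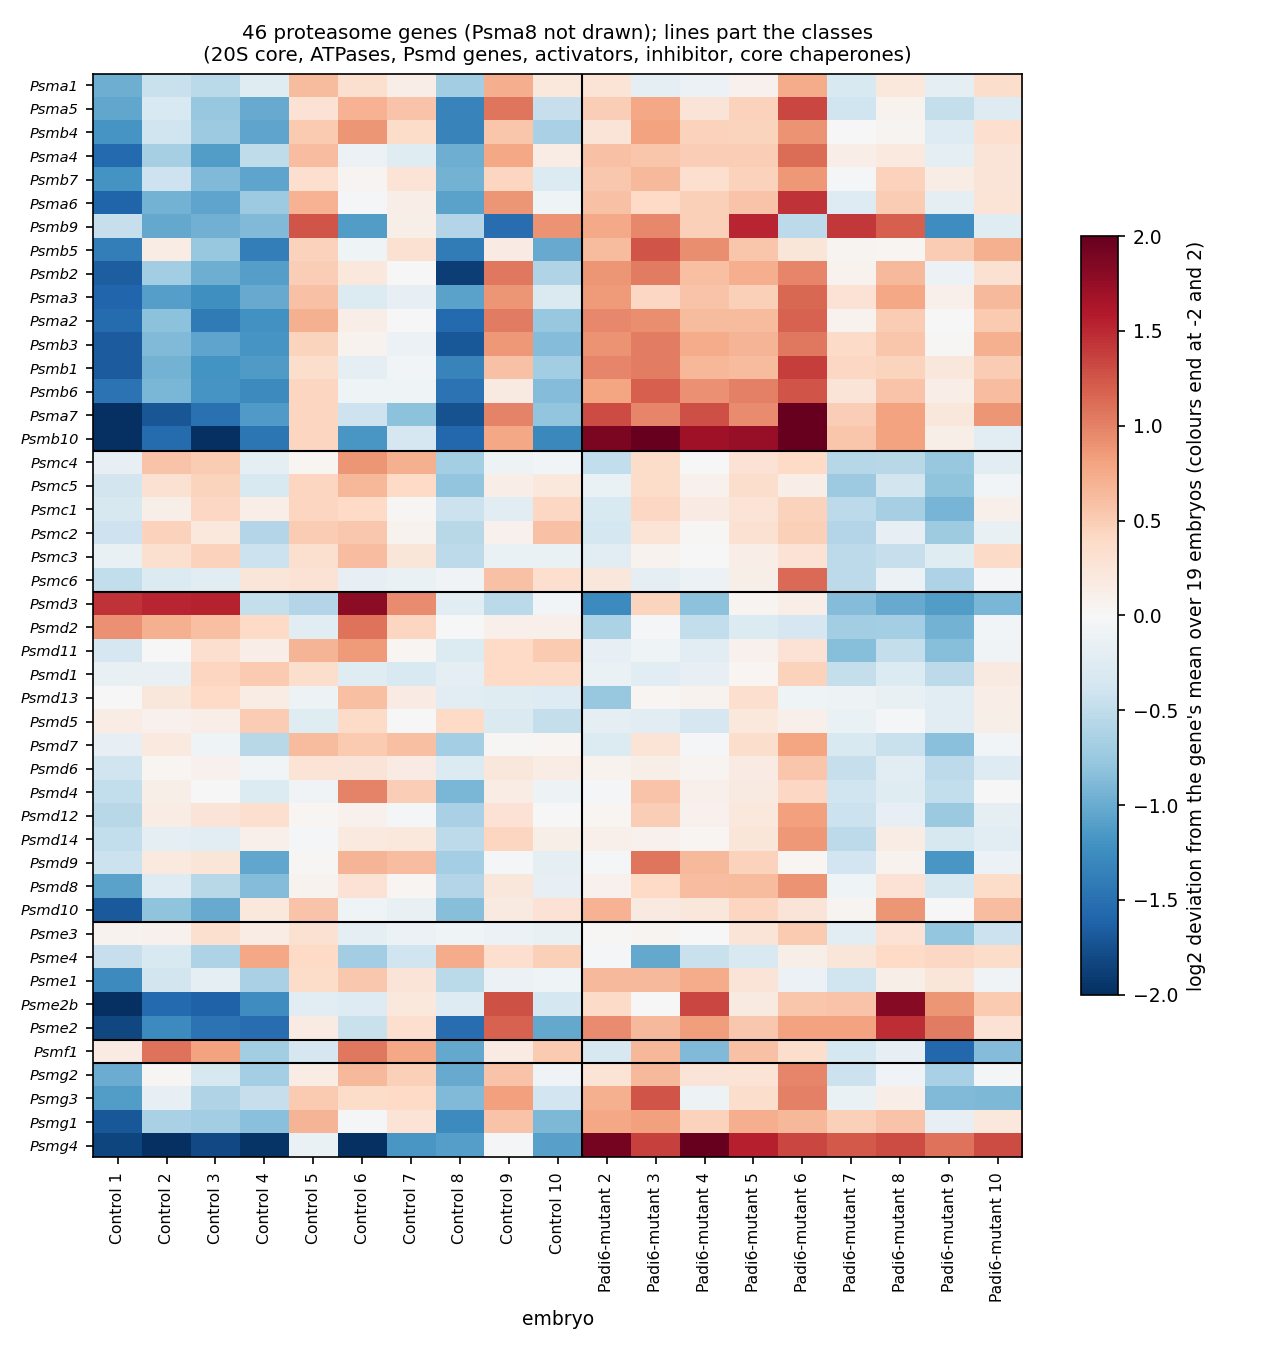
Deviation of each gene from its mean over all libraries (colour, log2) for 46 of the 47 genes in rows, grouped by role, and the 19 libraries in columns; Psma8, which varies most, is not drawn. The core genes are above their mean in most mutants and in Control 5 and Control 9 and below it in most other Control embryos, a division that the ATPase rows do not show.

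The chaperones build the core before any regulatory particle joins. Psmg1 and Psmg2 pair to hold the growing alpha ring, as do Psmg3 and Psmg4, and none of the 4 is part of the finished particle. Psmg4 had log2 levels of 6.91, 7.60 and 9.05 in Control and 10.16, 10.41 and 11.31 in Padi6-mutant libraries. It rose by 2.81 (SE 0.29, adjusted p = 2.92e-07), 7.02-fold, and it is the only 1 of the 47 genes whose groups did not overlap. Its partner Psmg3 had 8.93, 9.78 and 10.86 against 9.15, 10.18 and 11.31, a fold change of 0.31 (SE 0.30, adjusted p = 0.477). After removal of the trend on coding length described below, Psmg4 still rose by 1.71 (adjusted p = 3.68e-05), while Psmg3 fell by 0.80 (adjusted p = 0.00531).

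Psmg1 had 10.07, 11.09 and 12.44 in Control and 11.60, 12.33 and 12.58 in mutant libraries. It rose by 0.96 (SE 0.26, adjusted p = 0.00897), with all 9 mutants above the Control median. Its partner Psmg2 had 10.71, 11.69 and 12.37 against 11.07, 11.98 and 12.69, a fold change of 0.26 (SE 0.24, adjusted p = 0.457). In each pair of chaperones 1 gene passed and the other did not; whether partners differ from each other was not tested.

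Of 11 genes that assemble or bind the proteasome but do not carry the Psm name, 10 are listed, and 2 rose and 2 fell, with a median of 0.14, against 14.6% and 12.0% of all genes. Sem1, a small subunit of the lid, rose by 2.66 (adjusted p = 7.3e-07), and Pomp, the chaperone of the beta ring, by 1.29 (adjusted p = 0.00216). Ecpas, an adaptor of the proteasome, fell by 0.75 (adjusted p = 0.00241), and the deubiquitinase Usp14 by 0.44 (adjusted p = 0.0139). With the trend on coding length removed Sem1 was at 0.45 (adjusted p = 0.048) and Pomp at 0.21 (adjusted p = 0.337). Usp14 did not pass with the trend on transcript length removed (adjusted p = 0.0594) or with the replicate block (0.0537).

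None of 6 genes for the control of proteasome genes by NFE2L1 passed, while 26.6% of all genes did. Nfe2l1 itself had -0.58 (adjusted p = 0.0624), and the list's median was -0.35. Nfe2l1 passed with library weights (-0.70, adjusted p = 0.00985), among genes above the median level (adjusted p = 0.0489) and without any 1 of 4 libraries, and was at -0.12 (adjusted p = 0.628) with the trend on coding length removed. Of 6 genes for ubiquitin and its activation, Rps27a, a fusion of ubiquitin with a ribosomal protein, rose by 2.48 (adjusted p = 1.98e-05). The ubiquitin-activating enzyme Uba1 fell by 0.78 (adjusted p = 0.00705), and the polyubiquitin gene Ubb had 0.56 (adjusted p = 0.0745). With the trend on coding length removed Rps27a was at 1.54, Uba1 no longer passed (-0.37, adjusted p = 0.15) and Ubb passed (0.615, adjusted p = 0.02). Uba1 also lost its call with gene detection in the fit (adjusted p = 0.168) and without Padi6-mutant 6, 8, 9 and 10 (0.0777).

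Among 10 genes of shuttles and of the VCP segregase, which extracts and delivers substrates, 3 fell and none rose, with a median of -0.35. Of all genes, 12.0% fell and 14.6% rose. Vcp fell by 1.13 (adjusted p = 0.00144), its cofactor Nploc4 by 1.00 (adjusted p = 0.000328) and the shuttle Ubqln1 by 0.52 (adjusted p = 0.0152). Their coding sequences hold 2418, 1824 and 1662 nt. Of genes other than the 47, 16.9% fell between 1200 and 2000 nt and 22.5% above 2000 nt. With the trend on coding length removed, Vcp (-0.80, adjusted p = 0.0122) and Nploc4 (-0.63, adjusted p = 0.0215) still passed. Ubqln1 lost its call under 5 alternatives, with adjusted p up to 0.276, and Vcp with gene detection in the fit (-0.87, adjusted p = 0.051).

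The roles differ in the length of their coding sequences, and fold changes in these libraries moved with that length over all genes. Coding sequences run from 603 to 831 nt in the core, from 1167 to 1425 nt in the ATPases, from 666 to 2859 nt in the Psmd genes and from 366 to 867 nt in the chaperones. Of genes other than the 47 with at most 500 nt, 58.7% rose and 1.04% fell. The 2 proteasome genes of that length are Psmg4 (369 nt), which rose, and Psmg3 (366 nt), which did not pass. Between 500 and 900 nt, 24.8% rose and 5.89% fell, with a median fold change of 0.22 (1.14 in the shortest genes). The 26 proteasome genes in that range, which include the whole core, had a median of 0.86, and 16 rose and none fell.

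Between 900 and 1200 nt, 8.34% of other genes rose and 10.8% fell (median -0.11), and 1 of 7 proteasome genes rose (median -0.02). Between 1200 and 2000 nt, 3.73% rose and 16.9% fell (median -0.28), and of 9 proteasome genes none rose and 1 fell (median -0.21). Above 2000 nt, 1.42% rose and 22.5% fell (median -0.37), and of 3 proteasome genes 1 fell.

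The same length dependence can be described embryo by embryo. The deviations are from gene means over the same 19 libraries, so this restates the difference between groups and is not a separate observation. Spearman's rho across genes between coding length and a library's deviation from the gene means was -0.13 to 0.47 in Control (median 0.27) and -0.46 to -0.06 in Padi6-mutant libraries (median -0.29). Genes are not independent replicates, so rho is a description. Control 5 and Control 9, at -0.13 and -0.12, fell within the mutants' range, and they are also the Control embryos with the highest core levels. With the trend on coding length and GC content removed from each library, 13 of the 47 genes rose and 3 fell, with 9 of the 17 core genes higher and none of the ATPases called. With transcript length in place of coding length 9 rose and 9 fell: 6 core genes rose and 1 fell (Psma1, -0.45, adjusted p = 0.0192), and 2 ATPases fell (Psmc4 by 0.38, adjusted p = 0.0488, and Psmc5 by 0.50, adjusted p = 0.00732). Psmb2, Psmb3, Psmb5, Psmb7 and Psmg1 no longer passed there, at 0.17, 0.32, 0.38, 0.21 and 0.34. The rises of Psma7, Psmb6, Psme2 and Psmg4 were 1.08, 0.58, 0.87 and 1.57. Psma2, Psma3 and Psmb1 also kept their calls there. Their annotated transcripts hold 2911, 2846 and 1758 nt, against coding sequences of 702, 765 and 720 nt, so these calls depend on the transcript chosen. With coding length Psma2 did not pass (0.61, limma adjusted p = 0.0939). When the count of detected genes entered the fit as a covariate, 9 rose and 1 fell, and 7 of those that rose were core genes.

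**Figure D5:**
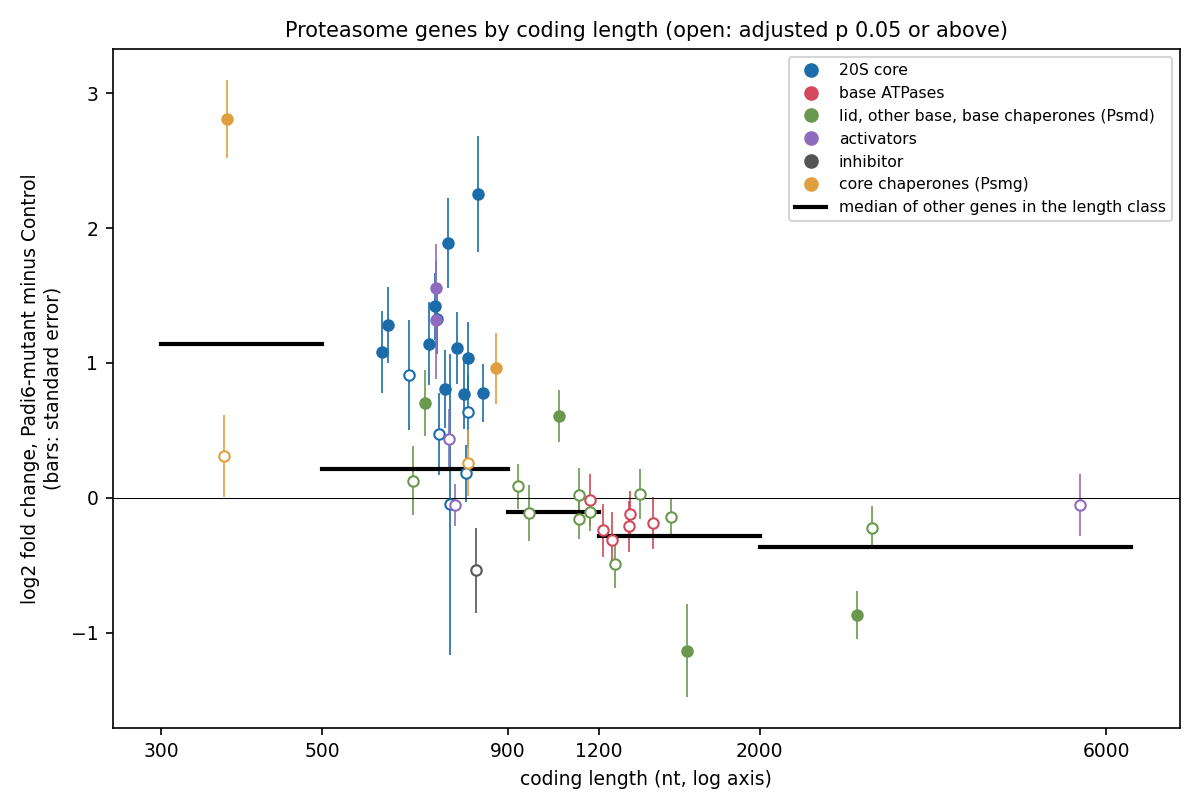
Coding length (horizontal axis, nt, log scale) against fold change (vertical axis, log2 Padi6-mutant minus Control) of the proteasome genes, coloured by role, with 1 point per gene and its standard error; black bars give the median of the other listed genes in each length class. The bars step down from 1.14 to -0.37, and most core genes, at 603 to 831 nt, lie above the bar at 0.22 for 500 to 900 nt.

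Of the 20 calls, 7 held under every alternative that tested the gene and without any single library: Psma7, Psmb1, Psmb6, Psmb10, Psme2 and Psmg4 among those that rose, and Psmd2 among those that fell. These alternatives were another scaling, a larger pseudocount, library weights, the replicate block, the filter on level, both length corrections, the covariate and the omission of 4 libraries.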

How the data were processed

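Per the submitters' processing notes, the tools were Trim Galore 0.4.4 and HISAT2 2.1.0 and the genome build GRCm39 (mm39); the counting tool, its use of strand and the annotation are not given in the sources used here. The authors deposited log2 values of upper-quartile scaled counts with a pseudocount of 1. They were used as deposited, so the depth in reads is not known. No gene was filtered out, since each is above 0 in 9 libraries or more. Groups were compared with limma 3.58.1 in R 4.3.3 (lmFit, eBayes with a trend, two-sided) over 14173 genes with Benjamini-Hochberg adjustment and a threshold of 0.05, after a test on simulated data. Pairs of genes were compared by an exact permutation test. Lengths came from GENCODE release M 21 (GRCm38), matched by symbol: the shortest principal (APPRIS) transcript, or the longest coding one. Trends on length and GC content were removed by lowess (span 0.3).

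The genes, related lists and comparisons were chosen with earlier results of these data known. Any of the 47 genes could be named. Lowest, median and highest values are given for up to 4 genes of a role with the smallest adjusted p, the 1 with the largest, those that fell, and the inducible subunits and activators; a few further genes are added. Of related lists, up to 3 genes with the smallest adjusted p and those that fell are named. The embryos count as replicates; whether they share a litter is not stated. Alternatives are given in the closing section. Those on length, detected genes and the 4 libraries were chosen after seeing the data.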

Additional observations from a re-analysis of the deposited data

Results flagged for a closer look

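In 2 of 94 combinations of gene and group, 1 library stood apart from the others of its group by Dixon's criterion, which chance exceeds in about 1 in 20. Both are in Padi6-mutant 6, the mutant library with the most genes at 0 (596): its log2 level was 15.65 for Psma6 and 15.61 for Psmc6, above the other mutants. Leaving out this library ended the call of Psma6, and Psmc6 passed neither with nor without it.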

How the results depend on the processing

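Values are scaled counts of unknown depth, so counting error could not be separated from the spread between embryos. Higher and lower are Padi6-mutant against Control. Why a result changed under a setting was not tested. With trends on transcript length and on GC content removed, 9 of the 47 genes were higher and 9 lower (core 6 and 1, ATPases 0 and 2, Psmd genes 1 and 4, chaperones 1 and 2, activators 1 and 0). The medians relative to all genes were then 0.39 in the core, 0.18 in the activators and -0.014 in the chaperones, against 1.14, 0.54 and 0.74. The sign turned in 10 of the 47 genes: Psmg3 (-0.64), Psmg2 (-0.51) and Psma1 (-0.45) passed, and Psmc3 (0.0087), Psmd4 (-0.11), Psmd12 (-0.073), Psmd13 (0.058), Psmd14 (-0.20), Psme3 (0.11) and Psme4 (0.043) did not. Psmb9 minus Psmb6 (0.23) turned too. With coding length, 2414 of 10982 genes changed against 3765 of 14173, and 1 activator and 1 Psmd gene were higher and 1 chaperone lower (Psmg3, -0.80). Of the 10 genes that turned, Psmg3 passed, and Psma1 (-0.16), Psmc2 (0.0098), Psmc3 (0.22), Psmd1 (0.034), Psmd9 (-0.18), Psmd13 (0.061), Psmd14 (-0.11), Psme4 (0.19) and Psmg2 (-0.033) did not.

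When the count of detected genes entered as a covariate, 1807 genes changed in all, and 9 of the 47 were higher and 1 lower (core 7, activators 1, chaperones 1 and Psmd genes 0 higher, Psmd genes 1 lower), and Psma8 (1.26), Psma1, Psmd12 and Psmd14 turned. Without Padi6-mutant 6, 8, 9 and 10, 13 were higher and 1 lower (activators 1 and Psmd genes 0 higher, Psmd genes 1 lower), and Psma8 (1.34) and Psme3 (5.76e-05) turned. With quantile normalization 15 were higher and 4 lower (Psmd genes 1 and 4), and Psma8 (0.34), Psmd4 (-0.22), Psma1 (-0.21), Psmd12 and Psmd14 turned. With library weights 21 were higher and 4 lower, and Psma8 (0.11), Psmc6 (0.043), Psmd4 (-0.033) and Psme4 (0.014) turned. With a pseudocount of 16, Psma8 turned (0.075). Among genes above the median level, which left 42 of the 47, 1 activator and 1 chaperone were higher.

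Leaving out 1 library at a time gave 14 to 20 higher and 2 to 3 lower, with 1 to 2 activators and 1 to 2 Psmd genes higher. Fold changes ranged from -0.60 to 0.70 for Psma8, -0.16 to 0.058 for Psmc6, -0.12 to 0.039 for Psme3, -0.081 to 0.13 for Psmd4 and -0.13 to 0.072 for Psme4. With the replicate block over the 18 libraries numbered 2 to 10, 2528 genes changed in all, and 13 of the 47 were higher and 3 lower (activators 1 and Psmd genes 0 higher), and Psmd4 (-0.034) and Psmd12 turned. None of the 20 calls among the 47 genes turned in sign under these 9 alternatives. The values gave little sign that the numbers pair the samples. Correlations of same-numbered libraries ran from -0.072 to 0.15, 1 of 9 was over 0.1, and 1 of 9 mutants correlated best with its own number. Whether same-numbered libraries share a litter or batch is not given in the sources used here and was not tested.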
